A study of Homo sapiens with 16 samples.

Results

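The epidermal growth factor (EGF) receptor family and its ligands were examined in HepG2 cells, which derive from a human liver tumour and keep many functions of hepatocytes. The set of 9 genes (TGFA, AREG, EREG, HBEGF, BTC, EGF, EGFR, ERBB2 and ERBB3) was chosen by gene symbol with earlier results of these arrays known, and its members were all probes that carry one of these symbols in the platform's probe table. Measured intensities were used only to mark which of these probes lie near background. This gave 8 probes of 30968, 1 for each gene except AREG, for which no probe of that symbol was listed and which was not analysed here. The cells were kept in serum-free medium for 7 days with 1 of 3 fatty acids of equal chain length or without one. Elaidic acid is the trans isomer of oleic acid, whose double bond is cis, and stearic acid has no double bond. The groups, of 4 biological replicates each, were 100 µM elaidic acid, 100 µM oleic acid, 100 µM stearic acid and no added fatty acid (control), and 2 technical replicate arrays were run per sample.

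The family signals at the cell surface. Its ligands are made as membrane-bound precursors that proteases cut free, and a freed ligand joins receptors into dimers that phosphorylate each other and pass the signal to the RAS and ERK kinases and to PI3K and AKT. TGFA, HBEGF, BTC, EREG and EGF all bind EGFR. ERBB2 has no ligand of its own and acts as a dimer partner, and ERBB3 has little kinase activity and couples its partners to PI3K. In liver the pathway is known for its part in hepatocyte proliferation and regeneration.

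The arrays came from 2 blocks of slide numbers, here named slide series A and slide series B. The first of them, A, held every oleic acid and control sample together with replicates 2 and 4 of elaidic acid, and B held every stearic acid sample together with replicates 1 and 3 of elaidic acid. Stearic acid therefore shares no slide series with oleic acid or control, and slide series and fatty acid cannot be told apart in those comparisons. Beside the results stand the values of a fit that blocks on slide series. With the block, elaidic acid is compared with oleic acid and control within series A and with stearic acid within series B, and stearic acid reaches the other groups only through the elaidic acid samples. Median deposited intensity was 25.5 to 57.8 on elaidic acid arrays, 20.7 to 49.4 on oleic acid arrays, 45.8 to 76.1 on stearic acid arrays and 20.0 to 72.8 on control arrays, and precision is limited by how few arrays there are. Of 12 genes that hepatocytes and HepG2 make, 9 were tested and all 9 were above background noise on every array, while FGA, a fibrinogen chain, was at or under it on all 16. ALB and HNF4A had no probe of that symbol and were not analysed here. Of 16 markers of other cell types, 12 were tested and 8 of these were above noise on every array. The 8 ranged from PTPRC, at intensities of 14.5 to 33.6, to VIL1, at 406 to 5977. KRT5, at 93.7 to 340, overlapped the range of the member EGF, at 76.2 to 278. Whether signals of this size come from the named transcripts was not tested. The endothelial markers differed, since CDH5 was among the 8, while VWF was at or under noise on 4 arrays and the 2 probes of PECAM1 on 3 and 5. COL3A1 and KRT14, at or under noise on 14 and 9 arrays, had values at or below 0 and were not tested.

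Upstream sequence is shown for TGFA and HBEGF, the ligands called lower with stearic acid than with oleic acid or no fatty acid in the fit without a block. With slide series as a block neither was called in those comparisons, and HBEGF had a log2 change of -0.13 for stearic acid against control. Each line gives the 250 bases before the first listed start of the gene, from RefSeq on GRCh38.p14, read 5′ to 3′ on the gene's minus strand, with GC boxes (GGGCGG on either strand) in capitals. The TGFA window is chr2:70553827-70554076 and the HBEGF window is chr5:140346604-140346853.
TGFA: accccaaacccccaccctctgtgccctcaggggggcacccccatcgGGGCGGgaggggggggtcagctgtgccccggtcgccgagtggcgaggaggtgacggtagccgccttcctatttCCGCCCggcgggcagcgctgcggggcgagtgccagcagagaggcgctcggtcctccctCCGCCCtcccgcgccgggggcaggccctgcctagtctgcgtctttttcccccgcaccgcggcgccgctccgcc
HBEGF: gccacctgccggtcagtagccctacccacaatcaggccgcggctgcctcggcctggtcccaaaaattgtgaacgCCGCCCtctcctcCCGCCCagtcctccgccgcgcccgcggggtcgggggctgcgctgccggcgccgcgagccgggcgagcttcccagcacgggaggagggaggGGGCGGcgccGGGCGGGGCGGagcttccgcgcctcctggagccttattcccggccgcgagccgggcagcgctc
The TGFA window held 3 GC boxes and the HBEGF window 5, in sequence of 75.6% and 76.4% G and C against a median of 58% over 35116 windows of the same length. A GC box is common, since 42.6% of those windows held at least 1. Neither window held the AP-1 motif TGANTCA (6.57% of windows), the CCAAT motif (32.0%), TATAAA (10.7%) or the SREBP element TCACNCCAC (0.883%), each searched on both strands. A second listed start of TGFA had 64% G and C and 0 GC boxes. Of the 8 genes with a probe 7 were matched to a RefSeq window, and ERBB3 was not matched.

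With stearic acid, TGFA and HBEGF were lower and ERBB2 was higher than in control, and the other members tested did not pass. TGFA was 3.56-fold lower (95% interval 2.39 to 5.30), HBEGF 2.71-fold lower (1.58 to 4.66) and ERBB2 2.25-fold higher (1.40 to 3.61). EREG, whose probe had values at or below 0, could not be put on the log2 scale, so that 7 of the 8 probes were tested. In all, 3 of these 7 passed limma at a Benjamini-Hochberg adjusted p under 0.05, where 29.8% of all 22939 probes tested passed, 15% higher and 14.8% lower. Elaidic acid and oleic acid differed from control in 0 of the 7 members each by limma, where 0.323% and 0% of all probes passed. In either comparison 0 of the 7 had an unadjusted limma p under 0.05, where 3283 and 602 of all 22939 probes had one. With the block for slide series 0 of 7 members passed limma in any of the 6 comparisons, and TGFA had an unadjusted p under 0.05 in all 3 comparisons with stearic acid. Over all 22939 probes, 1710 had one for stearic acid against control, 1334 for elaidic against stearic acid and 1513 for oleic against stearic acid. These 3 comparisons share the same stearic acid samples, so that they do not repeat each other independently. Of all probes 0.0392% passed with the block for elaidic acid against control, 0.0218% for elaidic against oleic acid, 0.00436% for elaidic against stearic acid and 0% in the 3 other comparisons.

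**Figure D1:**
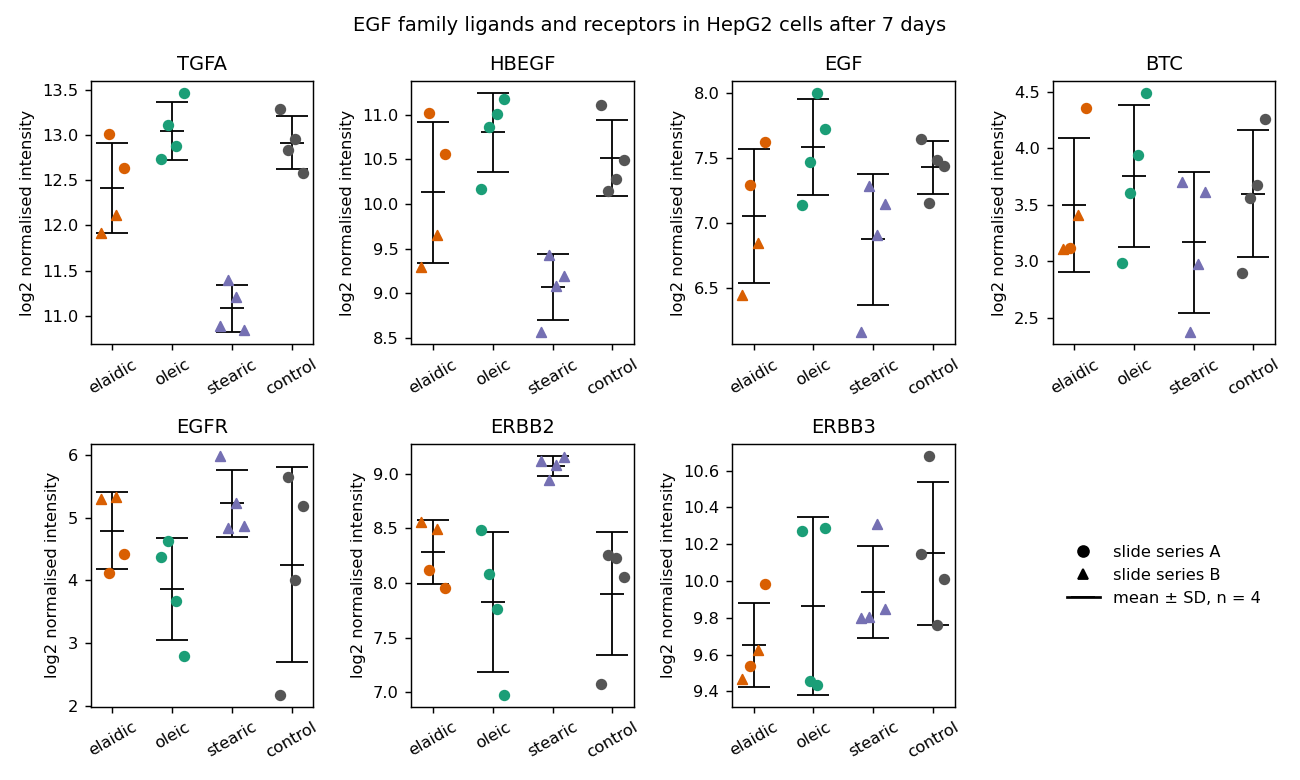
Each panel plots the log2 normalised intensity of 1 member (vertical axis) in the 4 samples of each group, with the mean and SD in black; circles are slide series A and triangles series B. All 4 stearic acid samples lie below all control samples for TGFA and HBEGF and above them for ERBB2, and the elaidic acid samples of series B lie nearer the stearic acid samples than those of series A do for these 3 genes.

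TGFA, transforming growth factor alpha, is made as a membrane precursor that ADAM17 cuts free. Its normalised log2 intensity was 11.91, 13.01, 12.12 and 12.63 in elaidic acid replicates 1 to 4, 12.74, 13.10, 12.87 and 13.46 with oleic acid, 10.88, 11.39, 11.21 and 10.84 with stearic acid, and 13.28, 12.83, 12.96 and 12.58 in control. Every stearic acid sample was below every other sample, and the elaidic acid samples of series B, at 11.91 and 12.12, lay between the stearic acid samples and the rest. The log2 change of stearic acid against control was -1.83 ± 0.27 (SE, n = 4 per group; limma adjusted p = 9.7e-04), and with the slide series block it was -1.02 (95% interval -1.86 to -0.18; adjusted p = 0.53). Without normalisation it was -1.07 (adjusted p = 0.016). The deposited intensities, before any scaling, also did not overlap, at 2533, 3341, 3543 and 3327 with stearic acid and 5066, 6115, 7528 and 8211 in control. These signals were at least 392 times the noise level of their array. In bulk RNA, a lower level in each cell and a smaller share of cells that make the transcript cannot be told apart.

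Among the acids, TGFA was highest with oleic acid, at a mean of 13.04 ± 0.32, and lowest with stearic acid, at 11.08 ± 0.26, with elaidic acid at 12.42 ± 0.50 (SD, n = 4 each). Elaidic acid against stearic acid gave 1.34 ± 0.27 (SE; limma adjusted p = 0.047), the 1 member of 7 that passed in that comparison, where 0.397% of all probes passed and 0.0872% were higher. Within slide series B the 2 elaidic acid samples, at 11.91 and 12.12, were above the 4 stearic acid samples, whose highest was 11.39. The difference there was 0.93 (95% interval 0.34 to 1.53; adjusted p = 0.44). Leaving out elaidic acid replicate 1 kept the call of the comparison of all samples (adjusted p = 0.047), and leaving out any other elaidic or stearic acid sample ended it, with limma adjusted p between 0.068 and 0.19 and log2 differences of 1.14 to 1.51 over all 8 samples left out. Oleic acid against stearic acid gave 1.96 ± 0.27 (limma adjusted p = 9.4e-04), or 1.16 (0.32 to 2.0) with the block (adjusted p = 0.59). Without normalisation the difference from stearic acid was 0.83 for elaidic acid, which did not pass (adjusted p = 0.26), and 1.09 for oleic acid, which did (adjusted p = 0.011). For the trans against the cis isomer the difference was -0.63 (-1.20 to -0.05), which did not pass (adjusted p = 0.24), or -0.22 (-0.82 to 0.37) within series A.

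HBEGF, the heparin-binding member of the family, binds EGFR and ERBB4. It was at 9.29, 11.01, 9.66 and 10.56 in elaidic acid replicates 1 to 4, 10.16, 10.86, 11.00 and 11.17 with oleic acid, 8.56, 9.43, 9.08 and 9.20 with stearic acid and 11.11, 10.15, 10.28 and 10.50 in control. The stearic acid samples lay below all oleic acid and control samples and overlapped the elaidic acid samples of series B. Stearic acid against control was -1.44 ± 0.37 (SE, n = 4 per group; limma adjusted p = 0.012), and the block took it to -0.13 (95% interval -1.18 to 0.92; adjusted p = 1.0). Deposited intensities of HBEGF overlapped between these groups, at 420, 827, 753 and 1024 with stearic acid and 1080, 940, 1199 and 1969 in control. Without normalisation the change was -0.79 and did not pass (adjusted p = 0.15). Oleic acid against stearic acid gave 1.73 ± 0.37 (adjusted p = 0.0043), or 0.42 (-0.63 to 1.47) with the block. Without normalisation it was 0.98 and did not pass (adjusted p = 0.064). Elaidic acid against stearic acid, at 1.06 (0.28 to 1.84), did not pass (adjusted p = 0.22), nor did elaidic acid against oleic acid, at -0.67 (-1.45 to 0.11).

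EGF itself had its lowest normalised mean with stearic acid, at 6.87, against 7.05 with elaidic acid. No difference passed limma in the fit of all samples and probes. Mean deposited intensity was higher with stearic acid, at 161, than with elaidic acid, at 138. It was at 6.45, 7.29, 6.85 and 7.63 in elaidic acid replicates 1 to 4, 7.14, 7.47, 8.0 and 7.73 with oleic acid, 6.16, 7.28, 6.91 and 7.15 with stearic acid and 7.64, 7.15, 7.48 and 7.44 in control, and all groups overlapped. Its largest difference was that of oleic acid against stearic acid, at 0.71 (95% interval 0.07 to 1.35; limma adjusted p = 0.071), which passed when only the brighter 50% of the probes were tested (adjusted p = 0.041). The block turned its sign, at -0.10 (-1.09 to 0.88). Against control, EGF had a change of -0.38 (-1.02 to 0.27) with elaidic acid, 0.15 (-0.49 to 0.80) with oleic acid and -0.56 (-1.20 to 0.09) with stearic acid. The change with stearic acid was 0.26 (-0.73 to 1.24) with the block and -0.09 without normalisation.

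**Figure D2:**
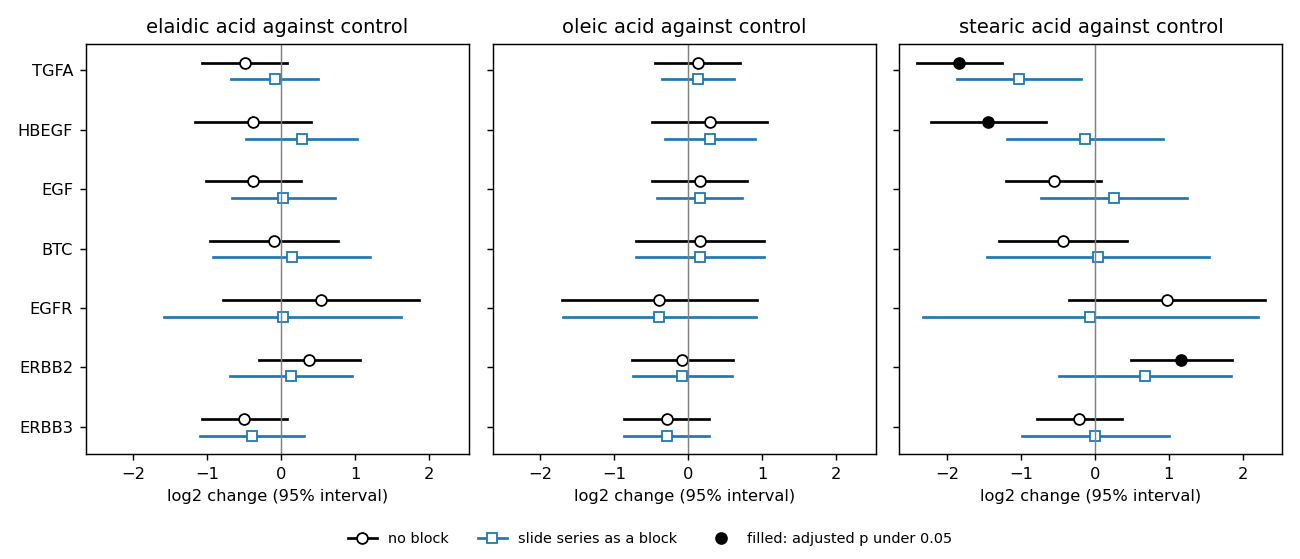
Points give the log2 change of each member (rows) against control for elaidic, oleic and stearic acid, with 95% intervals, without a block (black circles) and with slide series as a block (blue squares); filled symbols passed an adjusted p of 0.05. Filled symbols appear for TGFA at -1.83, HBEGF at -1.44 and ERBB2 at 1.17 with stearic acid, and none is filled with the block.

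The 2 remaining ligands, EREG and BTC, had the lowest median intensities of the members, and only EREG was near background by the rule used here. In each sample, noise was taken as the 95th percentile of the size of the values below 0, which came to 6.11 to 8.48 intensity units, and a probe at or under it in at least 8 of the 16 samples was called near background, as 21.1% of all probes were. EREG, epiregulin, was near background, with 12 of 16 values at or under noise and 3 at or below 0. Its deposited intensities were 3.89, -2.0, 4.2 and -1.06 with elaidic acid, 2.54, 9.57, -1.53 and 4.56 with oleic acid, 2.73, 1.03, 11.4 and 11.3 with stearic acid and 4.61, 15.8, 5.90 and 1.51 in control. The 4 values over noise came from oleic acid replicate 2, stearic acid replicates 3 and 4 and control replicate 2, so that no group stood apart. BTC, betacellulin, which binds EGFR and ERBB4, was at or under noise in 4 samples, 1 in each group, with intensities of 6.01 to 18.7 with elaidic acid, 6.08 to 17.1 with oleic acid, 6.96 to 16.7 with stearic acid and 4.93 to 29.5 in control. Its log2 change against control was -0.10 (95% interval -0.96 to 0.76) with elaidic acid, 0.16 (-0.70 to 1.02) with oleic acid and -0.43 (-1.29 to 0.43) with stearic acid, and none passed. At this signal a change inside those intervals was not excluded.

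**Figure D3:**
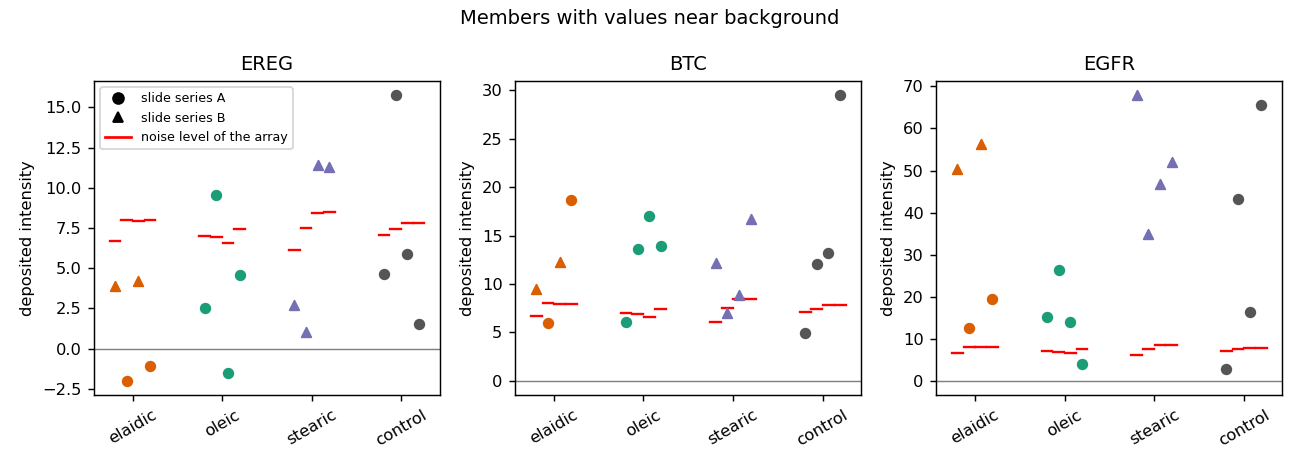
Deposited intensity (vertical axis, linear units before scaling) of EREG, BTC and EGFR is plotted for each sample by group, circles for slide series A and triangles for B, with the noise level of the same array as a red line. EREG lies at or under the line in 12 of 16 samples, BTC in 4 and EGFR in 2.

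EGFR, the receptor that all of these ligands bind, gave a dim probe with a wide spread. Deposited intensities were 50.3, 12.5, 56.3 and 19.5 in elaidic acid replicates 1 to 4, 15, 26.4, 14.0 and 4.04 with oleic acid, 67.9, 34.9, 46.7 and 52.0 with stearic acid and 2.77, 43.2, 16.4 and 65.5 in control. Control thus spanned nearly the whole range of the other groups, and the elaidic acid samples split by slide series, with 50.3 and 56.3 in series B and 12.5 and 19.5 in series A. On the normalised log2 scale the mean was 4.79 ± 0.61 with elaidic acid, 3.87 ± 0.82 with oleic acid, 5.23 ± 0.54 with stearic acid and 4.25 ± 1.55 in control (SD, n = 4 each). The change against control was 0.54 (95% interval -0.78 to 1.86) with elaidic acid, -0.39 (-1.71 to 0.94) with oleic acid and 0.98 (-0.34 to 2.30) with stearic acid, and none passed limma. Oleic acid against stearic acid, at -1.36 (-2.69 to -0.04; adjusted p = 0.088), passed when only these 2 groups were fitted (adjusted p = 0.028), and was -0.32 (-2.59 to 1.94) with the block.

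ERBB2, the partner receptor without a ligand, had its highest values with stearic acid. It was at 8.55, 8.12, 8.50 and 7.95 in elaidic acid replicates 1 to 4, 8.48, 8.08, 7.77 and 6.98 with oleic acid, 9.11, 8.94, 9.08 and 9.15 with stearic acid and 7.07, 8.26, 8.23 and 8.05 in control. Every stearic acid sample was above every other sample, those with elaidic acid in series B included. Stearic acid against control gave 1.17 ± 0.32 (SE, n = 4 per group; limma adjusted p = 0.016), and the block left 0.68 (95% interval -0.48 to 1.84; adjusted p = 0.91). Oleic acid against stearic acid gave -1.25 ± 0.32 (adjusted p = 0.010), or -0.76 (-1.92 to 0.40) with the block and -1.92 without normalisation (adjusted p = 0.023). Elaidic acid against stearic acid, at -0.79 (-1.47 to -0.11), did not pass (adjusted p = 0.28) and was -0.55 (-1.37 to 0.27) within series B. The 2 dimmest arrays, control replicate 1 and oleic acid replicate 4, had median intensities of 20.0 and 20.7, held the lowest values of ERBB2 and of EGFR and the highest of TGFA, and their part in the results was measured by leaving them aside. The change of stearic acid against control was then 0.90 for ERBB2 (adjusted p = 0.017), -1.70 for TGFA (adjusted p = 0.0029) and -1.25 for HBEGF (adjusted p = 0.038). Without control replicate 1 alone ERBB2 was at 0.89 and did not pass (adjusted p = 0.056).

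ERBB3, which binds neuregulins and couples to PI3K, passed in none of the 6 comparisons. It was at 9.47, 9.54, 9.63 and 9.98 in elaidic acid replicates 1 to 4, 10.27, 9.46, 9.43 and 10.29 with oleic acid, 9.80, 9.81, 10.31 and 9.85 with stearic acid and 10.15, 10.68, 9.76 and 10.01 in control. All groups overlapped. The change against control was -0.50 (95% interval -1.07 to 0.08) with elaidic acid, -0.29 (-0.86 to 0.28) with oleic acid and -0.21 (-0.78 to 0.36) with stearic acid. The interval of elaidic acid against oleic acid was -0.78 to 0.36, so that changes within it, down or up, were not excluded.

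Counted over all members, oleic acid against stearic acid had 3 of 7 past limma's threshold, TGFA and HBEGF higher and ERBB2 lower, where 39.5% of all probes passed, 21% higher and 18.4% lower. In the comparison of stearic acid with control the samples of 3 members did not overlap, 1 higher and 2 lower, where 18.7% of all probes were higher without overlap and 18.9% were lower. In oleic acid against stearic acid 4 members did not overlap, TGFA and HBEGF higher and EGFR and ERBB2 lower, where 23.5% of all probes were higher and 21.2% lower. In elaidic acid against stearic acid 2 did not overlap, TGFA higher and ERBB2 lower, where 4.72% of all probes were higher and 7.13% lower. Against shares this large over all probes, the counts with stearic acid against control and oleic acid do not set the family apart. Elaidic acid against oleic acid had 0 of 7 past the threshold by limma, where 0.318% of all probes passed. At an unadjusted limma p under 0.05 it had 1 of 7, TGFA, where 4342 of all 22939 probes were under it. That count does not set the family apart either.

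TGFA and HBEGF followed each other across samples, and ERBB2 ran opposite to both. Pearson's r over the 16 samples was 0.94 between TGFA and HBEGF, -0.89 between TGFA and ERBB2, and -0.90 between HBEGF and ERBB2. These samples share groups and slide series, and with each slide series centred on its mean the values were 0.67, -0.72 and -0.74. EGFR had an r of 0.82 with ERBB2 (0.72 centred) and -0.76 with HBEGF (-0.68 centred), though its probe is dim. ERBB3 had an r between -0.13 and 0.09 with the 6 other members, and between -0.40 and 0.09 after centring.

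**Figure D4:**
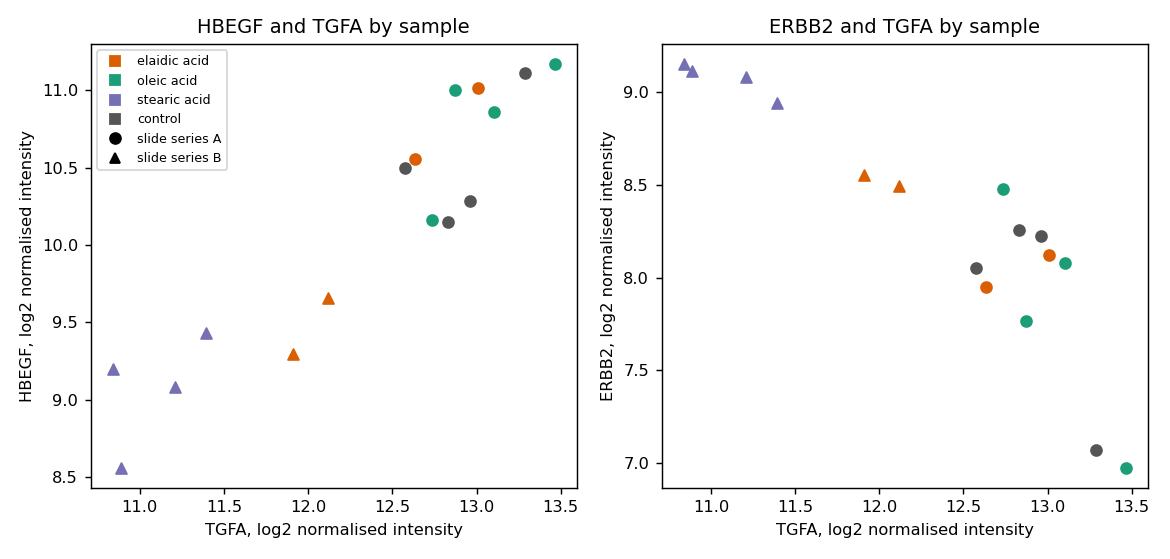
The log2 normalised intensity of HBEGF (left) and of ERBB2 (right) is plotted against that of TGFA, 1 point per sample, coloured by group, with circles for slide series A and triangles for B. HBEGF rises with TGFA and ERBB2 falls with it, and the stearic acid samples, at TGFA values of 10.84 to 11.39, form the low end of the TGFA axis.

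The probes whose pattern was most like that of TGFA were sought among 13187 probes with 1 symbol that were not near background. They were ALDH3B2, an aldehyde dehydrogenase (r = 0.98), NEUROD2, a neuronal transcription factor (r = 0.98), FURIN, a protease that processes precursor proteins (r = 0.97), KCNV2, a potassium channel subunit (r = 0.97), and TMEM127, a membrane protein (r = 0.97), over the 16 samples. With slide series centred the r values were 0.92, 0.91, 0.86, 0.88 and 0.85. None of these probes is a member, and each had a higher r with TGFA than HBEGF had, at 0.94, or 0.67 centred. The r between TGFA and HBEGF therefore does not set the family apart. The likeness is measured on samples that share slide series, and it is a description.

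Among genes that free or process the ligands, 12 were listed and 10 tested. With stearic acid against control 2 were higher and 2 lower, near the 15% higher and 14.8% lower of all probes, with a median log2 change of 0.28 where the median of all probes was -0.18. FURIN had means of 13.13 ± 0.30 with stearic acid and 15.22 ± 0.28 in control (SD, n = 4 each), a change of -2.09 ± 0.31 (SE; limma adjusted p = 9.7e-04). ADAM9, a membrane protease, was lower by -1.49 ± 0.20 with stearic acid, while ADAM10, a protease that cuts free EGF and BTC among other ligands, was higher by 1.08 ± 0.24. CNIH, the gene now called CNIH1, whose fly counterpart helps a TGF-alpha-like ligand leave the endoplasmic reticulum, was higher by 1.74 ± 0.31. With the block these 4 changes were -0.95, -1.21, 0.50 and 1.10, and none passed. With elaidic acid against control 1 of the 10 passed limma, where 0.323% of all probes passed. This was ADAM9, with means of 9.94 ± 0.26 and of 11.10 ± 0.05 in control. Its change was -1.17 ± 0.20 (limma adjusted p = 0.017), or -1.02 within series A with an adjusted p of 0.15. With only the 2 groups fitted, 0 probes passed for elaidic acid against control. With oleic acid 0 of the 10 passed limma, where 0% of all probes passed.

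Of 6 further receptors and ligands of the family 3 could be tested, and 0 passed limma in any comparison. NRG3, a neuregulin, was at or under noise in 8 of 16 samples and had a change of 0.89 ± 0.79 with elaidic acid against control (SE), and ERBB4, the receptor for neuregulins, HBEGF and BTC, was at or under noise in 4 and had a change of 0.06 ± 0.75.

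Among 27 genes of the receptor adaptors, RAS and the kinases downstream, 16 were tested, and 3 were higher and 2 lower with stearic acid than in control, near the 29.8% of all probes called in that comparison, with a median of 0.51, where that of all probes was -0.18. MAPK3, which encodes the ERK1 kinase and was at or under noise in 1 sample, was higher by 2.28 ± 0.57 (SE, n = 4 per group; limma adjusted p = 0.011), PTPN11, the phosphatase SHP2, by 1.82 ± 0.43, while AKT2, a kinase of the PI3K branch, was lower by -1.37 ± 0.27 and SOS1, the exchange factor that loads RAS, by -1.81 ± 0.33. The 2 probes of SOS1 disagreed, since the other gave 0.09 ± 0.21 (limma adjusted p = 0.78). With the block the 4 changes were -0.12, 0.35, -0.45 and -0.55, and none passed. Against control, 0 of the 16 passed limma with elaidic or oleic acid, where 0.323% and 0% of all probes passed. Of 20 genes that restrain or take up receptors 16 were tested, and 2 were higher with stearic acid than in control and 0 lower, where 15% of all probes were higher and 14.8% lower, with a median of 0.30. STAM, which sorts receptors taken up from the surface, was higher by 2.02 ± 0.48 and LRIG1, a negative regulator of ERBB receptors, by 0.87 ± 0.23, or by 0.60 and 0.25 with the block. CBLB, a ubiquitin ligase, and HGS, which acts with STAM, did not pass against control and differed between oleic and stearic acid, by 1.34 ± 0.42 (limma adjusted p = 0.023) and -0.66 ± 0.23 (adjusted p = 0.034). The block left both differences at 1.34 and -0.66 with wider errors, and neither passed.

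Of 28 listed genes that ERK signalling induces or that feed back on it, 24 were tested. With stearic acid against control 5 were higher and 1 lower, where 15% of all probes were higher and 14.8% lower, and the median was 0.51, where that of all probes was -0.18. With elaidic or oleic acid 0 of 24 passed limma against control, where 0.323% and 0% of all probes passed. ETV4, a transcription factor, had means of 12.61 ± 0.09 with stearic acid and 11.40 ± 0.26 in control (SD, n = 4 each), and its change was 1.21 ± 0.22 (SE; limma adjusted p = 0.0023). SPRED2, an inhibitor of RAS signalling, was higher by 1.73 ± 0.42, FOS, an immediate-early transcription factor, by 1.59 ± 0.46 and SPRY1, another inhibitor of receptor signalling, by 1.49 ± 0.52. With the block these 4 changes were 0.87, 0.67, -0.01 and -0.05, none passed, and the median of the list was -0.09. Of 9 hepatocyte markers 5 were higher with stearic acid than in control and 0 lower, where 15% of all probes were higher and 14.8% lower, with a median of 1.09, or 0.33 with the block, where 0 passed. With elaidic acid 1 of the 9 was higher than in control, where 0.323% of all probes passed. Their summed intensity, in units of the array median, was 2305 to 3827 with elaidic acid, 1045 to 2520 with oleic acid, 2829 to 4231 with stearic acid and 1029 to 1944 in control. Of 12 markers of other cell types 3 were lower with stearic acid than in control and 0 higher, where 14.8% of all probes were lower. The part of either set in the changes of the family was not tested.

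**Figure D5:**
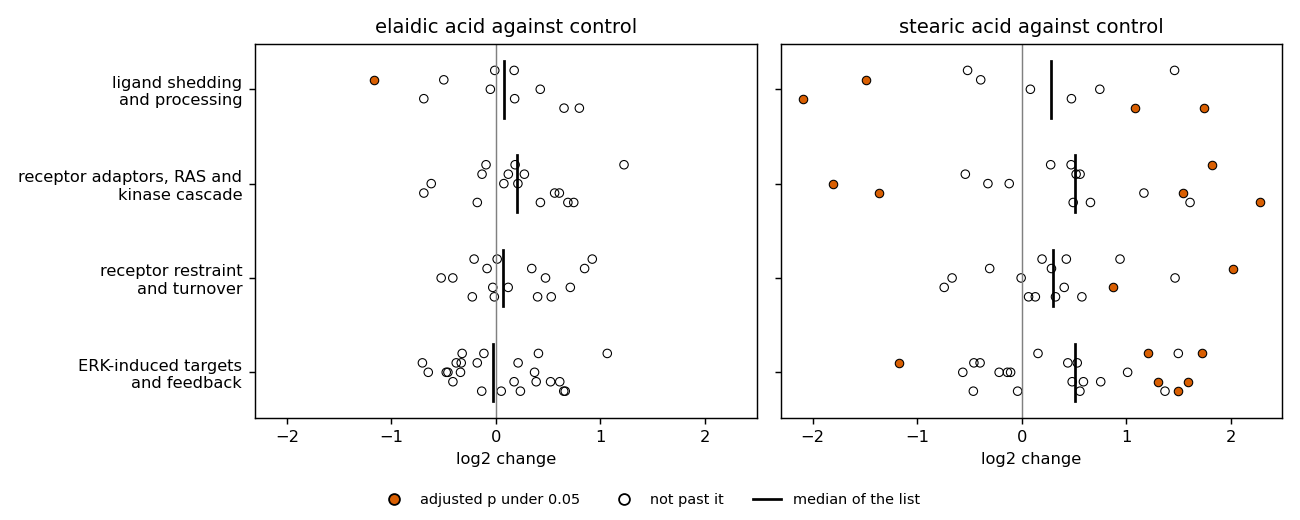
Each point is the log2 change of 1 gene against control with elaidic acid (left) and stearic acid (right), by list, with the median of each list as a bar and genes past an adjusted p of 0.05 in orange. With elaidic acid 1 point is orange, ADAM9 at -1.17, and with stearic acid orange points lie on both sides of 0 in the lists of ligand shedding, of the kinase cascade and of ERK targets, and above 0 in that of receptor restraint.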

How the data were processed

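The 16 samples were hybridised as Cy5-labelled amplified RNA on 1-colour arrays, per the labels' protocols. The authors deposited 1 linear intensity per probe and sample, net of background and not scaled across samples; the background method and the way the 2 technical replicates were combined are not given in the sources used here. Of 30968 probes, 8029 had at least 1 value of 0 or less, which has no logarithm, and were set aside. The log2 values of the other 22939 were quantile normalised. The 6 contrasts came from 1 limma fit (version 3.58.1, R 4.3.3) of all 16 samples with moderated two-sided tests and Benjamini-Hochberg adjustment over all probes. The fit was tested on simulated data, with changes set for elaidic acid against control. It called 13.8% of 2-fold and 62.9% of 4-fold changes without a block, and 2.8% and 38.6% with the slide series block. These are shares over simulated probes and do not bound the change of a single member, which its own interval does. For elaidic acid against control without a block, the widest member interval was that of EGFR, at -0.78 to 1.86 in log2. A 4-fold change thus lay outside the interval of every tested member there. A 2-fold change lay inside each of them except that of BTC (-0.96 to 0.76). In the other comparisons a change inside a member's interval was not excluded. For list genes with several probes, the brightest on average was used. Every member was named. From each list up to 4 called genes of smallest p were named, and where none was called the 2 of smallest p with elaidic acid against control. The 5 probes most like the member of smallest F-test p were also named. Symbols are those of the probe table, which gives 1 symbol to 17397 probes and none to 13571.

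The members and the gene lists were chosen with earlier results of these data known. The rule reads gene symbols, and only the note on background reads intensities. Alternatives covered the normalisation, an offset of 50 with all probes kept, the brighter 50% of probes, slide series and replicate number as blocks, fits of 2 groups and leaving out each sample. No normalisation and leaving aside the 2 dimmest arrays were chosen after seeing the data. The labels call the replicates biological, and p-values set a difference between groups against the spread of samples within groups. Without the block, that spread includes the split of the elaidic acid samples over the slide series. The differences of stearic acid from control and from oleic acid then include any difference between the series. Plots were made in matplotlib 3.10.9 (Python 3.11.15).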

Additional observations from a re-analysis of the deposited data

Results flagged for a closer look

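ERBB3 in stearic acid replicate 3, at a log2 normalised intensity of 10.31, stood apart from the other stearic acid samples, which lay between 9.80 and 9.85. Its gap to the nearest of them was 0.91 of the range of the group. This was 1 of 32 groups of 4 examined for a gap above Dixon's 95% critical value, a bound that chance passes in about 1 of 20 groups.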

How the results depend on the processing

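Once slide series entered as a block, the probes called numbered 9 for elaidic acid against control, 0 for stearic acid against control, 5 for elaidic against oleic acid, 1 for elaidic against stearic acid and 0 for oleic against stearic acid, with 0 members in each. The block also turned the sign of members that had not passed, to 0.27 (HBEGF), 0.14 (BTC) and 0.030 (EGF) for elaidic acid against control, to 0.047 (BTC), -0.063 (EGFR), 0.26 (EGF) and 0.0042 (ERBB3) for stearic acid against control, to 0.083 (EGFR) and -0.23 (EGF) for elaidic against stearic acid, and to -0.10 (EGF) for oleic against stearic acid. The cause was not tested in this or the following cases.

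For elaidic against stearic acid, where TGFA was called, 0 members were called with array medians aligned (adjusted p = 0.095), without normalisation, with only the 2 groups fitted (adjusted p = 0.11) and with the replicate block (adjusted p = 0.12). Aligned medians gave ERBB3 0.013 for stearic acid against control. Without normalisation, chosen after seeing the data, the median change of all probes for stearic acid against control moved to 0.26, against -0.18 with it. The probes called were then 0 for elaidic acid against control, 3099 for stearic acid against control, 2 for elaidic against oleic acid, 0 for elaidic against stearic acid and 5125 for oleic against stearic acid. The signs of BTC for oleic acid against control (-0.059), of ERBB3 for stearic acid against control (0.51) and for elaidic against oleic acid (0.13), and of EGF for elaidic against stearic acid (-0.14) turned.

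With the offset of 50 and all probes kept, 224 probes were called for elaidic acid against control, 209 for elaidic against oleic acid and 581 for elaidic against stearic acid, and with the brighter 50% of probes 189, 180 and 294. With only 2 groups fitted the same 3 comparisons gave 0, 0 and 0. Samples of one number did not pair, since the correlation of their deviations ran from -0.46 to 0.36 over 24 pairs and 12 of 48 were highest with their own number. The replicate block gave 28, 4 and 0 probes in those comparisons. With the 2 dimmest arrays left aside, also chosen after seeing the data, 41, 24 and 304 were called there and 4459 for stearic acid against control, EGFR was -0.16 for elaidic acid against control and BTC -0.32 for oleic acid against control.

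Leaving out each sample in turn gave 25 to 115 probes for elaidic acid against control, 3571 to 8213 for stearic acid against control, 3 to 191 for elaidic against oleic acid, 0 to 49 for elaidic against stearic acid and 4766 to 8520 for oleic against stearic acid, with 0 to 1 members for elaidic against stearic acid. Signs turned within -0.39 to 0.12 (BTC) and -0.16 to 1.01 (EGFR) for elaidic acid against control, within -0.087 to 0.42 (BTC), -1.10 to 0.076 (EGFR), -0.0072 to 0.25 (TGFA) and -0.35 to 0.20 (ERBB2) for oleic acid against control, within -0.22 to 0.065 (ERBB3) for oleic against stearic acid, and within -0.058 to 0.38 (EGF) for elaidic against stearic acid. For stearic acid against control TGFA stayed called at -1.95 to -1.71 and HBEGF at -1.56 to -1.25. EGF passed for oleic against stearic acid without oleic acid replicate 1 (adjusted p = 0.048). EREG stayed the 1 member near background at the 99th percentile of noise.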
